A study of Mus musculus with 10 samples.

Results

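Hal, Vnn1, Lipf and Aspg encode 4 metabolic enzymes whose signal was far higher in the lungs of mice exposed to cigarette smoke than in the lungs of mice kept in room air. They were chosen by that same contrast on these arrays, so their differences between the groups are a description and carry no test. They are 4 of the 27669 genes measured, and 5 of the 41174 probes belong to them, 1 each for Hal, Vnn1 and Lipf and 2 for Aspg. Whole-lung RNA was measured in female mice of the inbred strain BALB/c, obtained at 6 to 8 weeks of age, with 1 lung per array and 5 mice in each group. A smoke session burned 12 cigarettes over 50 minutes, and the smoke group had 2 sessions a day on 5 days of each of 8 weeks. The control group breathed room air for the same 8 weeks, and the labels name no genetic change or further treatment for either group. Whole lung mixes many cell types, so more cells of a type and more RNA per cell cannot be told apart, nor can fewer cells and less RNA per cell.

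Hal, histidine ammonia-lyase, opens the breakdown of histidine by turning it into urocanate and ammonia, and is known above all from liver and epidermis. Vnn1, vanin 1, is a pantetheinase held on the cell surface that splits pantetheine, a breakdown product of coenzyme A, into pantothenate and cysteamine, and it is a known target of PPAR alpha in liver. Lipf is gastric lipase, which the stomach secretes to cut triglycerides of the diet, and Aspg is an asparaginase that also carries a lysophospholipase activity.

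The labels name 1 dye per sample, whereas each scanner file holds a red and a green channel, so genes of known sex and tissue were used to tell what each channel holds. In these female lungs the Y chromosome genes Ddx3y, Eif2s3y and Kdm5d were well above background in green on 10 of 10 arrays and in red on 2, 0 and 1, while Uty was so on 0 arrays in either channel. The lung genes Sftpc, Scgb1a1 and Ager exceeded their green signal in red by 6.39, 6.72 and 4.83 log2 units. On these values red is taken here as lung RNA, and green as a reference RNA that includes male tissue. In the authors' table of processed values the groups are exchanged against the scanner files, since each of its 286449 values equalled, within 1e-04, that of the equally numbered array of the other group. Every direction given for Hal, Vnn1, Lipf and Aspg rests on the assignment of the scanner files to the samples and on this reading of the channels.

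The probes are shown because each gene's values rest on 1 of them, and for Aspg because its 2 probes gave differences of unequal size. The first 30 of the 60 bases of each are printed in lower case, with no base in capitals.
Hal: gagagagtctcaggaactgcctgtaatgtg
Vnn1: ctgtttgtcaacagtggactcgggtgtaag
Lipf: gatggcagaagactaacagaattatctaca
Aspg brighter probe: ctgcttcccagcctttccgcacgacaatct
Aspg dimmer probe: ctgaagcagctggaaatgcagatgtggtgg
In build mm7, which the array design uses, the Hal probe lies at chr10:93075295-93075354, the Vnn1 probe at chr10:23655645-23655704 and the Lipf probe at chr19:33677902-33677961. The brighter Aspg probe lies at chr12:109652429-109652488 and the dimmer one at chr12:109651608-109651667, with starts 821 bases apart. The files name both Aspg probes A530050D06Rik, an older name of the gene. G and C made up 40% of the bases of the Hal, Vnn1 and Lipf probes, 45% of the brighter and 51.7% of the dimmer Aspg probe.

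Levels are log2 ratios of red over green after loess normalization within each array, so 0 does not mean equal signals in both channels, and the level of a probe can be set against itself across arrays but not against another probe's. Precision is limited by the number of arrays.

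Hal, the histidine-degrading enzyme, had log2 ratios of 1.08, 0.62, 0.70, 0.51 and 0.65 in room air replicates 1 to 5. In smoke replicates 1 to 5 the Hal ratios were 3.53, 3.64, 3.54, 3.27 and 3.58. The groups were far apart, with the highest room air lung, replicate 1, lying 2.20 below the lowest smoke lung, replicate 4. Mean Hal ratios were 0.71 ± 0.22 in room air lungs and 3.51 ± 0.14 in smoke lungs (SD, n = 5), a difference of 2.80 or a fold of 6.96, and 7.42 without room air replicate 1. In red alone at the 75th percentile the Hal fold was 12.7.

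Vnn1, the pantetheinase, had ratios of 1.51, 0.28, 0.22, 0.19 and 0.34 in room air replicates 1 to 5. Its smoke lungs had 3.33, 3.55, 3.70, 3.37 and 3.56 in the same order. Room air replicate 1 stood far above the other room air lungs, yet still 1.82 below the lowest smoke lung, so the groups did not overlap. Vnn1 averaged 0.51 ± 0.56 in room air lungs and 3.50 ± 0.15 in smoke lungs (SD, n = 5), a difference of 2.99 or a fold of 7.97. Without room air replicate 1 the room air mean was 0.26 ± 0.07 (SD) and the fold was 9.47.

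Lipf, the gastric lipase, had ratios of 0.51, 0.91, 0.73, 0.46 and 0.66 in the room air lungs, in order of replicate. Its ratios in the smoke lungs were 2.45, 2.22, 2.72, 1.90 and 2.28. In neither group did a lung stand alone, and the lowest smoke lung lay 0.98 above the highest room air lung. Mean Lipf ratios were 0.65 ± 0.18 (SD, n = 5) and 2.31 ± 0.30, a difference of 1.66 or a fold of 3.16, and 3.08 without room air replicate 1. With the scanner software's own ratios the Lipf fold was 5.30.

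Aspg, the asparaginase, had ratios of 2.06, 1.99, 2.00, 1.41 and 1.54 in room air replicates 1 to 5 at its brighter probe. The same probe gave 3.54, 3.52, 3.84, 2.84 and 3.00 in smoke replicates 1 to 5. Replicates 4 and 5 were the lowest of their group with room air and with smoke alike, and the groups were separated by 0.78. Means were 1.80 ± 0.30 (SD, n = 5) and 3.35 ± 0.42, a difference of 1.55 or a fold of 2.92, and 3.06 without room air replicate 1.

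The dimmer Aspg probe had ratios of 0.11, 0.30, 0.28, 0.34 and 0.23 with room air. With smoke it had 0.68, 0.95, 1.14, 0.75 and 0.54. These groups did not overlap either, although the gap was only 0.20 and smoke replicate 5 lay closest to the room air lungs. Its means of 0.25 ± 0.09 (SD, n = 5) and 0.81 ± 0.24 differed by 0.56, a fold of 1.48, so the size of the Aspg difference depended on the probe. At this probe the difference was 0.98 with the scanner software's own ratios and 1.23 in red alone at the 75th percentile. Averaging both Aspg probes gave a difference of 1.06, a fold of 2.08.

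**Figure D1:**
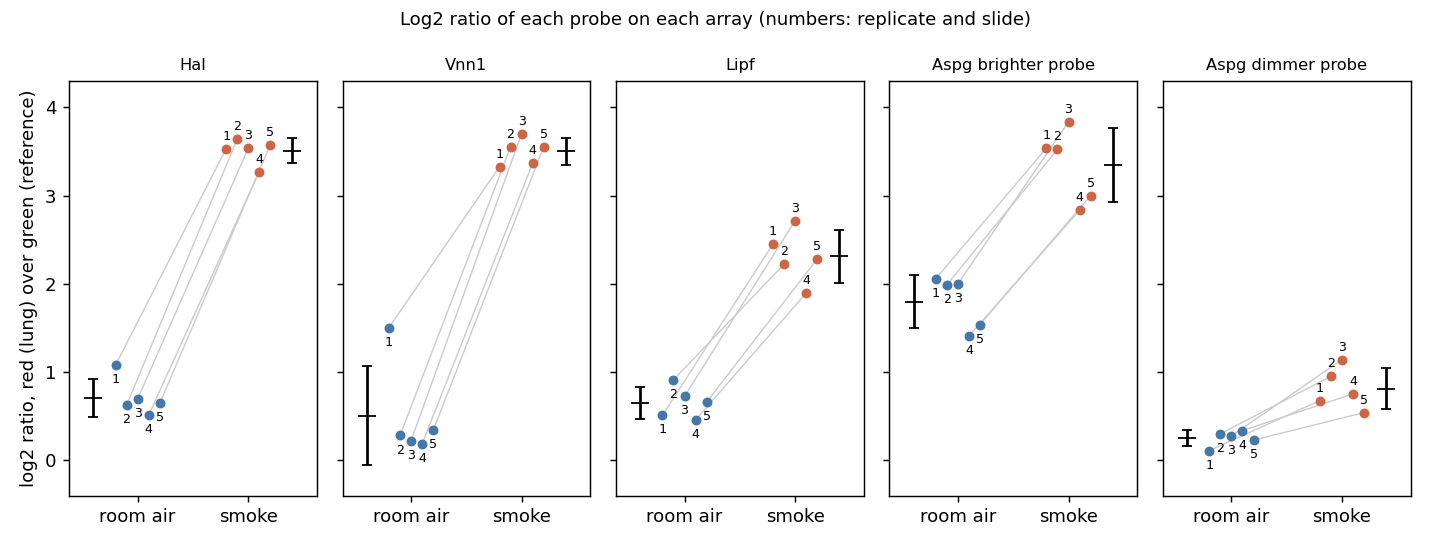
Log2 ratio of lung over reference (vertical axis) for the 5 probes of Hal, Vnn1, Lipf and Aspg on each array, with room air lungs in blue and smoke lungs in red, numbered by replicate. Grey lines join the arrays of a slide and black bars give the mean ± SD of 5 lungs; every smoke lung lies above every room air lung at each probe, and room air replicate 1 stands at 1.51 for Vnn1.

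By size of the difference among the 27669 genes, Vnn1 ranked 7, Hal 10, Lipf 42 and Aspg 56, each by its brightest probe. In 4 of the 4 genes every smoke lung lay above every room air lung, which held for 4.62% of all genes, and since this contrast chose the 4 genes nothing is read from that count. Across all probes limma called 2906 of 41173, or 7.06%, at an adjusted p under 0.05, and 5019 with the slide as a block. By gene, 4.95% were called higher and 3.27% lower with smoke, and with the block 2076 and 1736 of the 27669 genes were.

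Each slide carried the smoke and the room air array of 1 replicate number, so the difference could also be read within slides. The smoke array was always at place 1 and the room air array at place 2, so place on the slide and exposure cannot be told apart. Hal differed by 2.46, 3.01, 2.84, 2.76 and 2.93 on slides 1 to 5. Vnn1 differed by 1.82 on slide 1, which carries the high room air lung, and by 3.18 to 3.48 on the other slides. Lipf differed by 1.31 to 1.99 within slides, Aspg by 1.43 to 1.84 at the brighter and by 0.31 to 0.87 at the dimmer probe. On 5 of 5 slides the smoke lung had the higher ratio at each of the 5 probes.

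Raw signals showed where each ratio came from. The mean red signal of Hal was 272 to 499 in the room air lungs and 2418 to 4028 in the smoke lungs. For Vnn1 it was 218 to 681 and 1710 to 3359, and the room air lung at 681 was replicate 1. Both genes thus had red signals in every smoke lung that no room air lung reached. Lipf gave 134 to 187 with room air and 332 to 655 with smoke, and the brighter Aspg probe gave 357 to 760 and 936 to 1898. The dimmer Aspg probe gave 94.1 to 166 and 133 to 260, ranges that overlapped in raw red signal although its ratios did not.

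With the red channel alone after quantile normalization over probes, the differences were 3.38 for Hal, 3.17 for Vnn1, 1.74 for Lipf, and 1.68 and 0.68 for the brighter and the dimmer Aspg probe. In the green reference channel alone they were 0.061 for Vnn1, 0.0034 for Lipf, and 0.073 and 0.11 for the Aspg probes. Hal was the exception in green, with 7.24 ± 0.11 (SD, n = 5) on the room air arrays and 7.72 ± 0.07 on the smoke arrays, a difference of 0.48. The difference in the Hal ratio is thus smaller than that in its red signal, whose fold was 10.4, and the reason for the green difference was not tested. All 5 probes were scored well above background in red and in green on 10 of 10 arrays, and 0 of their spots were flagged. Lipf was nonetheless close to background in green, where its mean signal was 0.954 to 1.38 times the local background, so its ratios depend on the background correction.

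**Figure D2:**
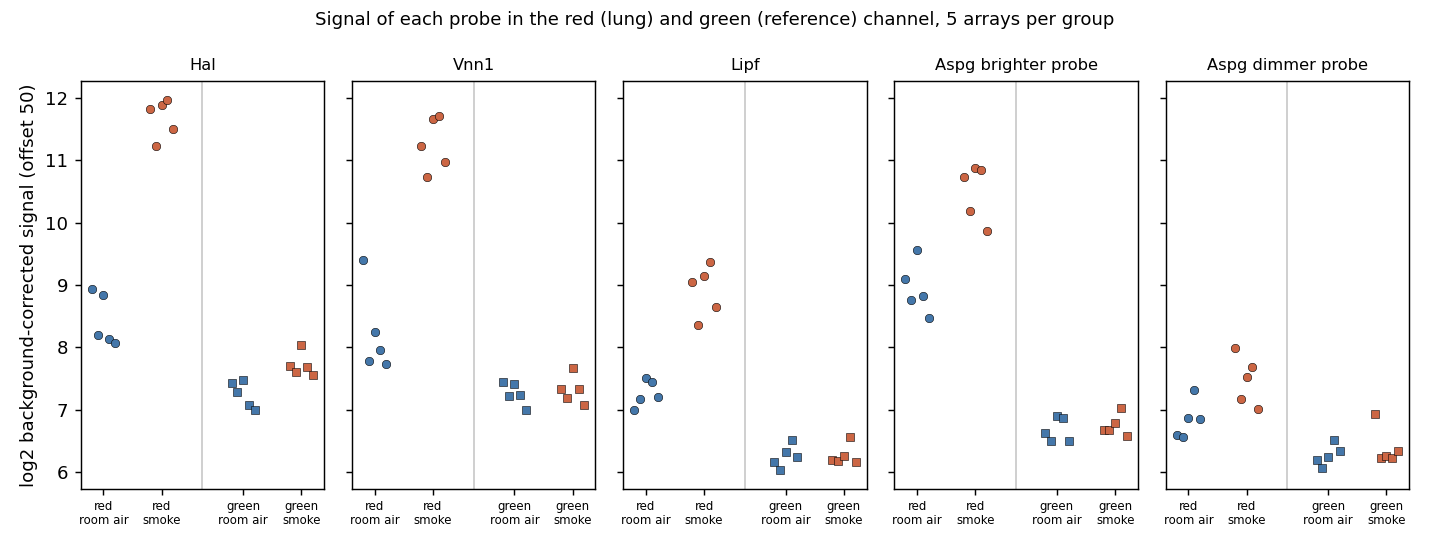
Background-corrected log2 signal (vertical axis) of the 5 probes in the red channel (circles) and the green channel (squares), for 5 room air lungs (blue) and 5 smoke lungs (red points). The groups separate in red for Hal, Vnn1, Lipf and the brighter Aspg probe, while in green the largest difference is the 0.48 of Hal after quantile normalization.

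Around Hal, 15 other genes of histidine handling were listed and measured. Of these, 3 rose, 0 fell and 12 did not pass limma's test over all probes. Over all genes 4.95% were called higher and 3.27% lower, shares that also stand beside the counts of the later lists. The median log2 difference of the 15 genes was -0.012, against -0.0042 over all genes. Cndp2, a dipeptidase that can release histidine from carnosine, rose 1.51-fold (adjusted p = 0.00149, and 0.0844 with median centring), and Slc15a3, a lysosomal histidine and peptide transporter, rose 1.64-fold (adjusted p = 0.00347). Slc7a5, a carrier of large neutral amino acids, rose 1.24-fold (adjusted p = 0.0375), a call lost when any 1 of 8 arrays was left out, with an adjusted p of up to 0.0967. Slc7a5 passed in 8 of 22 settings, the main one included, and with median centring its fold was 1.15 (adjusted p = 0.335). Uroc1, urocanase, which acts directly after Hal, had a log2 difference of -0.012 (adjusted p = 0.95), with a signal scored above background in 3 of 5 room air and 1 of 5 smoke lungs. Amdhd1, the enzyme after Uroc1 and the gene next to Hal, had a difference of -0.049 (adjusted p = 0.664). The high Hal signal with smoke was thus not accompanied by a call in the following enzymes of its route. Hdc, which makes histamine from histidine, had a fold of 0.78 and did not pass (adjusted p = 0.108, and 0.129 without room air replicate 1), whereas with the slide as a block it passed (adjusted p = 0.00373). Its other alternatives were not run, and it was named after its value was seen.

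Around Vnn1, 23 of 23 listed genes of pantetheine and coenzyme A handling were measured, of which 4 rose and 2 fell, with a median log2 difference of 0.067. Without room air replicate 1 there were 5 and 3. Vnn3, the other vanin on the arrays and the neighbour of Vnn1 on chromosome 10, had mean ratios of 0.88 ± 0.78 in room air lungs and 2.48 ± 0.26 in smoke lungs (SD, n = 5). Vnn3 rose 3.03-fold (adjusted p = 0.00924) and 3.85-fold without room air replicate 1, and its call was lost with the scanner software's own ratios (a fold of 3.46, adjusted p = 0.254). Over 21 alternatives the log2 difference of Vnn3 was 1.47 to 2.53, against 1.60. Like Vnn1, Vnn3 had its highest room air value in replicate 1. Enpp1, a surface enzyme that can split coenzyme A, rose 1.86-fold (adjusted p = 2.48e-05) and Slc5a6, the carrier of pantothenate and biotin, rose 1.26-fold (adjusted p = 0.00969). Ppcdc, a decarboxylase of coenzyme A synthesis, rose 1.21-fold (adjusted p = 0.0216). Of the enzymes of cysteamine and taurine metabolism, Csad fell by 0.27 (adjusted p = 0.00723) and Fmo1 fell by 0.38 on the log2 scale (adjusted p = 0.0291). Median centring in place of loess ended the calls of Slc5a6, Ppcdc and Csad (adjusted p = 0.281, 0.498 and 0.129). Their log2 differences were then 0.23, 0.17 and -0.37, against 0.33, 0.28 and -0.27, so that of Csad was larger in size. Leaving out any 1 of 4 arrays ended the call of Ppcdc, and any 1 of 5 that of Fmo1. The difference of Fmo1 was -0.097 with the scanner software's own ratios (adjusted p = 0.847) and -0.25 with an offset of 16 (adjusted p = 0.247). Over all its probes it was -0.20 (adjusted p = 0.194). Over 21 alternatives the difference of Fmo1 ranged from -0.81 to -0.097. Fmo1 passed in 13 of 22 settings, the main one included. Btd, biotinidase, a relative of the vanins, did not pass (adjusted p = 0.364).

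Around Lipf, 20 of 23 listed genes of the lipase family were measured, of which 3 rose and 0 fell, with a median log2 difference of 0.030. With the slide as a block 3 rose and 1 fell, which was Lipe (adjusted p = 0.0114). Without room air replicate 1 the counts were also 3 and 1, but the gene that fell was Lipg (adjusted p = 0.0024). Of the acid lipases related to Lipf, Lipk, Lipn and Lipm were well above background in red on 0 of 10 arrays, and the first pair lies next to Lipf on chromosome 19. Lipo3, another relative, was well above background in 10 of 10 lungs, with a difference of -0.0062 (adjusted p = 0.978), and Lipo1, Lipo2 and Lipo4 were not measured. Lipa, the lysosomal acid lipase, rose 1.54-fold (adjusted p = 0.00361, and 0.0883 with median centring). Lpl, lipoprotein lipase, rose 1.93-fold (adjusted p = 6.26e-05), and Pnliprp1, a pancreatic lipase relative, rose 1.77-fold (adjusted p = 0.000618). The log2 difference of Pnliprp1 was 0.83, with 0.63 to 1.61 over 21 alternatives, and its call was lost with the scanner software's own ratios (a fold of 1.55, adjusted p = 0.731). Among the measured acid lipases related to Lipf, Lipa alone passed the test, and its difference of 0.63 was below the 1.66 of Lipf, a gap that was not tested.

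Around Aspg, 25 of 25 listed genes of asparagine and lysophospholipid handling were measured, of which 1 rose and 1 fell, with a median log2 difference of 0.073. With the slide as a block 4 rose and 1 fell, and without room air replicate 1 there were 2 and 0. Pnpla7, a lysophospholipase, rose 2.03-fold (adjusted p = 1.06e-07), with every smoke lung above every room air lung. Aspa, which splits acetylaspartate, fell by 0.36 on the log2 scale (adjusted p = 0.0482), a call lost when any 1 of 8 arrays was left out, with an adjusted p of up to 0.122. Asrgl1 and Aga, enzymes that like Aspg act on asparagine or its conjugates, had differences of 0.21 (adjusted p = 0.143) and 0.15 (adjusted p = 0.499). Without room air replicate 4, which lay highest in its group, Asrgl1 passed (adjusted p = 0.0317).

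The list of PPAR alpha targets, to which Vnn1 is linked in liver, moved in both directions. Of 15 measured, 2 rose and 3 fell, with a median log2 difference of -0.062. With the slide as a block 3 rose and 4 fell, and without room air replicate 1 there were 2 and 4. Plin2, a coat protein of lipid droplets, rose 1.75-fold (adjusted p = 0.000434). Acot1, a thioesterase, fell by 0.75 (adjusted p = 0.0415), Angptl4, an inhibitor of lipoprotein lipase, fell by 0.66 (adjusted p = 0.0239) and Acadm, a dehydrogenase of mitochondrial fat breakdown, fell by 0.39 (adjusted p = 0.0272). Leaving out 1 array ended the call of Acot1 for 9 arrays, of Angptl4 for 4 and of Acadm for 7, with adjusted p of up to 0.105, 0.0594 and 0.0667.

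**Figure D3:**
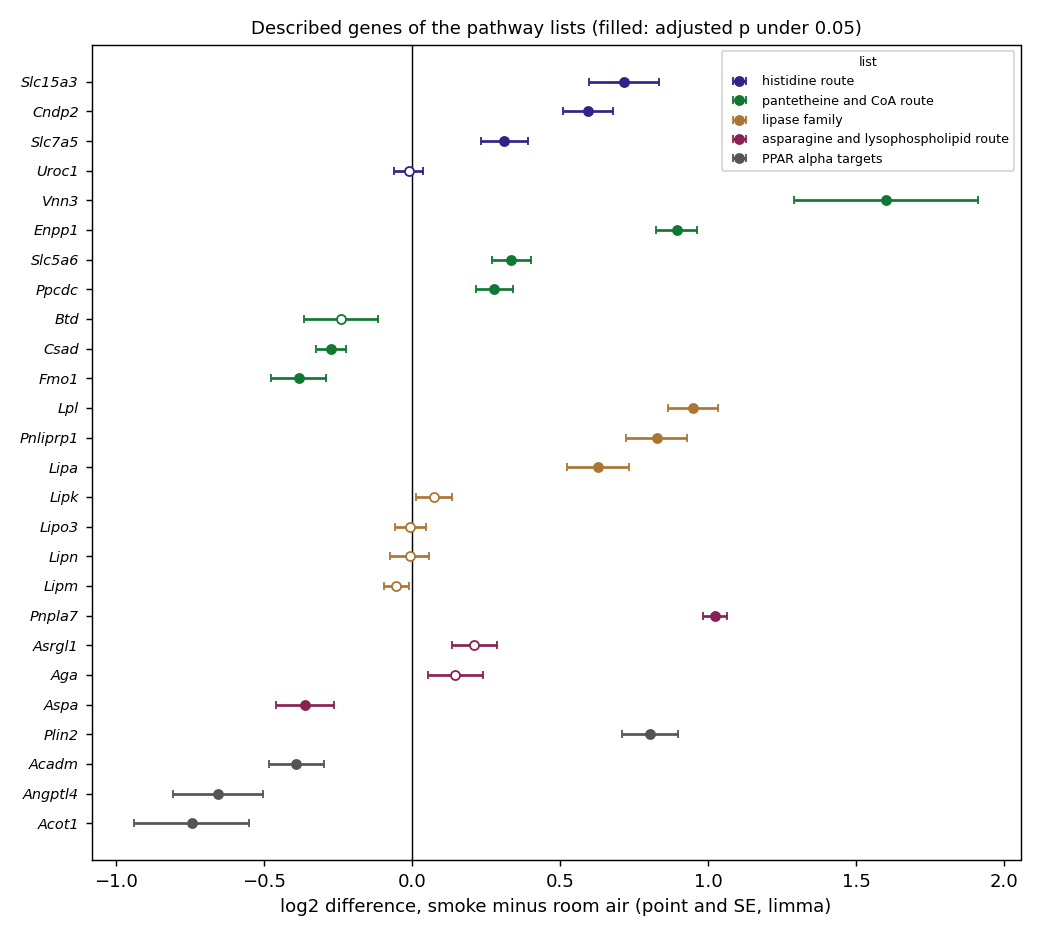
Log2 difference between smoke and room air with its SE from limma (horizontal axis) for the genes of the 5 pathway lists described in the text, coloured by list, filled where the adjusted p was under 0.05. Vnn3 lies farthest to the right at 1.60 and Acot1 farthest to the left at -0.75, while Uroc1, which follows Hal in its route, lies at -0.012.

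The nearest genes on either side of each member in the reference annotation were looked up after the data had been seen. Of the 4 genes around Hal, Elk3, an ETS transcription factor, fell by 0.41 on the log2 scale (adjusted p = 0.0324), a call lost when any 1 of 8 arrays was left out, while Lta4h, Amdhd1 and Ccdc38 did not pass. Around Vnn1, Vnn3 alone passed, and Slc18b1, Taar1 and Taar2 did not. Around Lipf, Lipk and Lipn did not pass and Lipo1 and Lipo2 were not measured. Around Aspg, Tdrd9 and A530016L24Rik did not pass and Rd3l and Kif26a were not measured.

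Promoter sequences are shown because the 4 genes were high together with smoke. Of the 4 genes, 3 were in the promoter table of RefSeq, build GRCm38.p6, and Vnn1 was not. The 250 bases before each gene's start are given 5′ to 3′ on the plus strand, with capitals marking matches to the motifs searched.
Hal, chr10:93488518-93488767 +: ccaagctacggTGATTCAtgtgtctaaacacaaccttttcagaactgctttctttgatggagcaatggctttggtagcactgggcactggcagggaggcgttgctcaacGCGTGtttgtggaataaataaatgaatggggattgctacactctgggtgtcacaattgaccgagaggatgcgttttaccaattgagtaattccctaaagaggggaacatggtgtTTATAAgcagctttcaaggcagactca
Lipf, chr19:33960998-33961247 +: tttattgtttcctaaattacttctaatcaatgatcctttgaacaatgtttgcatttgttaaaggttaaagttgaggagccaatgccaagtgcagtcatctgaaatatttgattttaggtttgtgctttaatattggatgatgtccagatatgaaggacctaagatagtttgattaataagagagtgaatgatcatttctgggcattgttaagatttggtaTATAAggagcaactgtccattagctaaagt
Aspg, chr12:112106433-112106682 +: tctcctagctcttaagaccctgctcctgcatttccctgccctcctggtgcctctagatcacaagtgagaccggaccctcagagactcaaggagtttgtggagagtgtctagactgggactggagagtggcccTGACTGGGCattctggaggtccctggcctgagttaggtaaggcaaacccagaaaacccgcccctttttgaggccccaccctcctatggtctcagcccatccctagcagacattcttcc
Searched on both strands were GCGTG (core of the response element of the aryl hydrocarbon receptor) and TGACNNNGC (antioxidant response element core). Also searched were TGANTCA (AP-1 with any middle base), CACGTG (E-box), AGGTCA (nuclear receptor core) and TATAA (TATA box). In this order the motifs occur in 28.2%, 10.2%, 6.75%, 6.02%, 14% and 22.8% of all 32851 promoters of this length. The Hal promoter held GCGTG at -141 to -137 and TGANTCA at -239 to -233. The usual AP-1 site has G or C in the middle, whereas this TGANTCA match has T. The Hal promoter also held TATAA on both strands, at -27 to -23 and -26 to -22, which overlap. The Lipf promoter held TATAA at -30 to -26, and the Aspg promoter held TGACNNNGC at -118 to -110. CACGTG and AGGTCA were in 0 of the 3 windows, and a match is a description of letters, not a site or a cause. G and C made up 45.6% of the Hal, 32.4% of the Lipf and 56.4% of the Aspg window.

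How the 4 genes varied among lungs of 1 group was not used to choose them, and was tested on deviations from the group mean over the 10 arrays. Over the 6 pairs the median Pearson r was 0.481, and 0 of 6 pairs passed after Benjamini-Hochberg adjustment (two-sided permutation test within groups, 100000 resamples). Hal and Vnn1 had an r of 0.847 (permutation p = 0.0341, adjusted p = 0.102) and a Spearman rho of 0.709 (permutation p = 0.0445, adjusted p = 0.189). The relation did not hold without room air replicate 1 and smoke replicate 4, the arrays farthest from the median of Hal, where r was 0.219, although leaving out extreme arrays also narrows the range. Lipf and Aspg had an r of 0.737 (permutation p = 0.0309, adjusted p = 0.102) and a rho of 0.661 (permutation p = 0.0631, adjusted p = 0.189), and r was 0.412 without smoke replicates 3 and 4. Hal and Aspg had an r of 0.585 (permutation p = 0.0637, adjusted p = 0.127) and a rho of 0.576 (permutation p = 0.0998, adjusted p = 0.2), and r was 0.293 without the same arrays as for Hal and Vnn1. Vnn1 and Aspg had an r of 0.378 (permutation p = 0.222, adjusted p = 0.332) and a rho of 0.321 (permutation p = 0.325, adjusted p = 0.487), with an r of 0.0192 once 2 arrays were left out.

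Hal and Lipf had an r of 0.168 (permutation p = 0.621, adjusted p = 0.746) and a rho of 0.152 (permutation p = 0.69, adjusted p = 0.827), with an r of 0.0289 once 2 arrays were left out. Vnn1 and Lipf had an r of -0.0671 (permutation p = 0.84, adjusted p = 0.84) and a rho of -0.0424 (permutation p = 0.914, adjusted p = 0.914), with 0.187 once 2 arrays were left out. Without room air replicate 1 the r of Hal and Lipf was 0.595 (permutation p = 0.18, adjusted p = 0.322), with a rho of 0.167 (permutation p = 0.71, adjusted p = 0.71) and an r of -0.724 once smoke replicate 4 and room air replicate 4 were also left out. The r of Vnn1 and Lipf was then 0.555 (permutation p = 0.214, adjusted p = 0.322), with a rho of 0.35 (permutation p = 0.427, adjusted p = 0.658) and an r of 0.747 once smoke replicates 1 and 3 were also left out. Without the same lung the r of Hal and Vnn1 was 0.486 and that of Lipf and Aspg was 0.859 (permutation p = 0.01, adjusted p = 0.0601), and 0 of 6 pairs passed. Arrays of a slide are not independent of each other, so effects of slide and of lung cannot be told apart in these values. The 2 probes of Aspg had an r of 0.453 (permutation p = 0.29) and a rho of 0.176 (permutation p = 0.678), and an r of 0.663 without smoke replicate 4 and room air replicate 4.

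**Figure D4:**
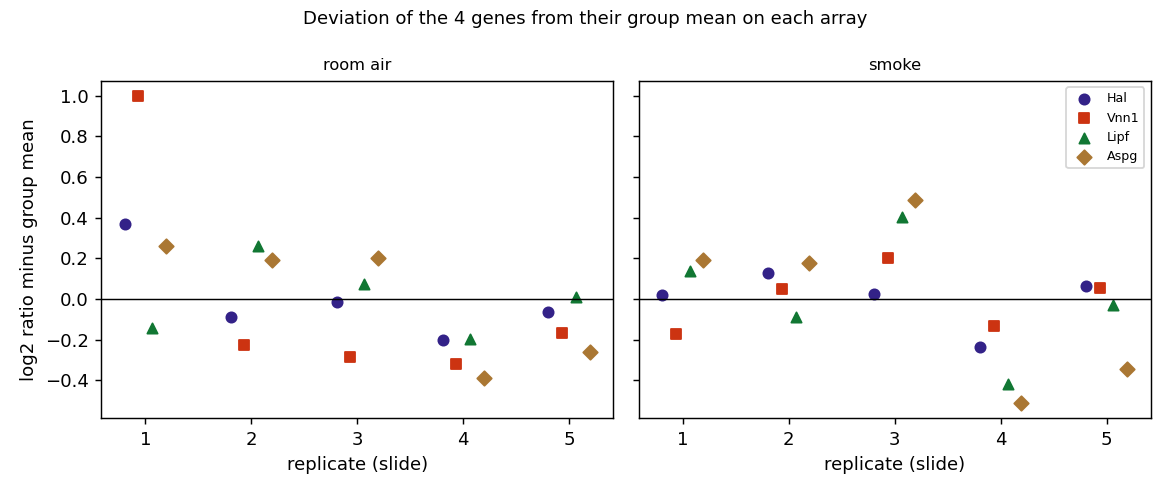
Deviation of the log2 ratio of Hal, Vnn1, Lipf and Aspg (brighter probe) from the group mean (vertical axis) on each array, by replicate, with room air lungs on the left and smoke lungs on the right. In room air replicate 1 Vnn1, Hal and Aspg lie above 0 and Lipf below it, and in replicate 4 of either group all 4 genes lie below 0.

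The genes whose deviations were most like each member's were ranked among 17128 genes well above background in red on all 10 arrays, as a description with no p. For Hal they were Rictor, a subunit of a growth kinase complex (r = 0.976), P2ry6, a receptor for UDP (0.972), Gpx2, a glutathione peroxidase (0.966), Cd44, a hyaluronan receptor (0.966), and Cfb, a complement factor (0.962). For Vnn1 they were Ifi205, an interferon-induced gene (0.988), AK033329 (0.982), BC089618 (0.981), the chemokine Ccl9 (0.98) and Ch25h, cholesterol 25-hydroxylase (0.98). The Vnn1 list leaned on room air replicate 1, without which its r values were 0.707 to 0.852. For Lipf they were 1810064F22Rik, Smim10l2a, the cadherin Cdh16, Shisa7 and BC046331, with r of 0.94 to 0.974. For Aspg they were Mdh1b, a malate dehydrogenase relative, Ccdc40 and Ccdc180, coiled-coil genes of cilia or sperm, Naprt, an enzyme of NAD synthesis from nicotinate, and Spag6l, a gene of the ciliary axoneme, with r of 0.971 to 0.983. In the red channel alone the same pairs had r of 0.439 to 0.832 for Hal, 0.842 to 0.988 for Vnn1, -0.113 to 0.94 for Lipf and -0.06 to 0.713 for Aspg, so some genes like Lipf or Aspg in ratio were unlike them in red. Of the genes most like Hal, P2ry6 rose 1.88-fold (adjusted p = 0.00148) and Cd44 rose 1.77-fold (adjusted p = 0.0267, lost when any 1 of 8 arrays was left out). Gpx2 and Cfb passed only with the slide as a block (adjusted p = 0.0112 and 0.0357, against 0.111 and 0.109), in the red channel alone, or without room air replicate 1 (0.004 and 0.0032). Rictor, the gene most like Hal, had a difference of -0.091 (adjusted p = 0.715). The genes that ranked first and next in likeness to Vnn1, Ifi205 and AK033329, had differences of -0.24 (adjusted p = 0.634) and -0.16 (adjusted p = 0.758). Of the others most like Vnn1, BC089618 rose 9.08-fold (adjusted p = 0.00071), Ccl9 rose 5.86-fold (adjusted p = 0.00484) and Ch25h rose 10.9-fold (adjusted p = 0.0113). Their log2 differences of 3.18, 2.55 and 3.45 were 3.04 to 3.75, 2.36 to 3.07 and 3.20 to 4.27 over 21 alternatives, and without room air replicate 1 the fold of Ch25h was 19.3 (adjusted p = 3.15e-09). None of those most like Lipf passed, and of those most like Aspg, Naprt passed only with the slide as a block (adjusted p = 0.0116, against 0.0798), in red alone after quantile normalization (0.0493) or without smoke replicate 4 (0.0339).

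Markers of macrophages and monocytes moved with the same contrast as the 4 genes. Of 13 listed, 11 were measured, 7 rose and 0 fell, with a median log2 difference of 1.14. Marco rose 6.05-fold, Chil3 4.33-fold, Cd68 4.16-fold, Adgre1 2.62-fold and Itgax 2.53-fold, with adjusted p from 6.92e-09 (Cd68) to 0.00248 (Marco). Over 21 alternatives the log2 difference ranged from 2.16 to 3.67 for Marco, from 0.91 to 2.12 for Itgax and from 0.84 to 1.45 for Adgre1, against 2.60, 1.34 and 1.39. The summed red signal of the list was 451800, 427200, 456300, 352600 and 453600 in room air replicates 1 to 5. In smoke replicates 1 to 5 it was 491900, 491800, 582500, 439600 and 542700. Groups overlapped in this sum, in which Lyz2 was the brightest gene, and 0 of the 11 measured markers were at background on all arrays. Their part in the differences of Hal, Vnn1, Lipf and Aspg was not tested.

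Neutrophil markers moved with room air replicate 1, the lung in which Vnn1 stood apart. Of 12 listed, 11 were measured, 2 rose and 0 fell, with a median log2 difference of 0.16. With the slide as a block 3 rose, and 4 rose without that lung. Their summed red signal was 161500 in room air replicate 1, and 30680, 23800, 24370 and 33500 in room air replicates 2 to 5. In smoke replicates 1 to 5 it was 66610, 50530, 39470, 43510 and 44580. The sum in room air replicate 1 exceeded that of every other lung, smoke included. S100a9 was the brightest gene, Elane was at background on 10 of 10 arrays, Camp rose 1.51-fold (adjusted p = 0.00881) and Mmp8 rose 2.24-fold (adjusted p = 0.021, lost when any 1 of 4 arrays was left out and, at a fold of 3.18, with the scanner software's own ratios). The log2 difference of Camp was 0.60, but 2.30 with the scanner software's own ratios and 1.80 in red alone at the 75th percentile, where its call was lost (adjusted p = 0.0756). Some markers of other cells also stood high in room air replicate 1. The macrophage marker Marco had a ratio of 4.86 there, against 2.49 to 3.32 in the other room air lungs. Cd68 and Itgax were also highest of the room air lungs there, at -1.16 and 2.81, by small margins. Adgre1 and Lyz2 were lowest of the room air lungs there, at -0.16 and 5.47. The mean ratio of the macrophage list, Marco included, was 2.63 there, against 2.433 to 2.495. The summed red signal of that list, 451800, lay within the range of the other room air lungs. The summed red signal of fat markers was highest there of all lungs, at 16680. The part of any of these markers in the Vnn1 value of that lung was not tested, and without the lung the Vnn1 fold was 9.47 in place of 7.97.

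Because Lipf is a stomach enzyme, and Hal an enzyme of liver and skin, markers of other tissues were examined beside them. Of 12 stomach markers 11 were measured and 0 passed the test. Of these, Cblif and Gkn1 were at background in all 10 lungs and 4, Gkn3, Tff2, Muc6 and Ghrl, were well above it in all 10. The part of these markers in the Lipf signal was not tested. The summed red signal of stomach markers was 1482, 1201, 1173, 2085 and 1469 with room air and 1544, 1449, 1249, 1987 and 1512 with smoke, with Gkn3 the brightest. Of 10 liver markers 0 passed, Ahsg was the brightest, Ttr and Cps1 were at background in all 10 lungs, and the sum was highest in room air replicate 5 at 2913 against 842 to 1059 with smoke. Of 12 squamous epithelium markers, with a summed red signal of 1820 to 3144 with room air and 1629 to 2700 with smoke, 0 rose and Krt10 fell by 0.40 (adjusted p = 0.0394, lost when any 1 of 6 arrays was left out), while Sprr3, Ivl and Flg were at background in all 10 lungs. Of 7 exocrine pancreas markers 6 were measured and 0 passed, with Ctrb1 the brightest and Cela2a and Amy2a5 at background. In these 4 lists, of tissues where Hal, Lipf or a lipase relative is at home, 0 genes rose, beside 4.95% of all genes. Of the 11 stomach, 10 liver, 12 squamous and 6 pancreas markers measured, 4, 3, 7 and 3 were well above background in all 10 lungs. The part of these tissues in the Hal and Lipf signals was not tested. With the slide as a block 1 stomach marker, Ghrl, rose with smoke (adjusted p = 0.0145, against 0.336). With the block the squamous marker Lor also passed, as lower with smoke (adjusted p = 0.0355, against 0.35).

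The remaining lists describe the lungs in which the 4 genes were measured. Of 5 fat markers 0 rose and Cidec fell by 1.02 (adjusted p = 0.0105), against a difference of -0.36 with the scanner software's own ratios (adjusted p = 0.832) and -0.93 with an offset of 16 (adjusted p = 0.0652). Cfd was the brightest fat marker. The summed red signal of fat markers was 7655 to 16680 with room air and 6116 to 9890 with smoke, and their part in the differences of the 4 genes was not tested. Of 6 measured T cell markers 0 passed, with Cd3d the brightest, and 2 rose with the slide as a block, Cd3d among them (adjusted p = 0.0327, against 0.349). Of 5 B cell markers, with Cd79b the brightest, of 8 lung epithelium markers, with Sftpc the brightest, and of 4 Y chromosome genes, with Kdm5d the brightest in red, 0 passed.

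**Figure D5:**
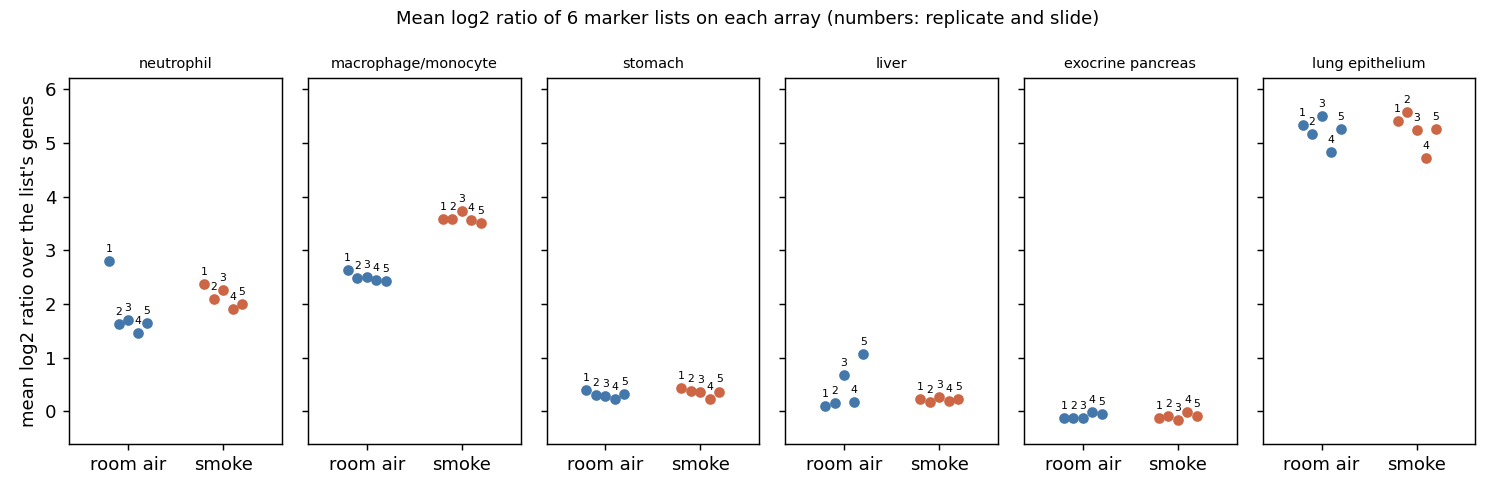
Mean log2 ratio of lung over reference over the genes of 6 marker lists (vertical axis) on each array, with room air lungs in blue and smoke lungs in red, numbered by replicate. Macrophage and monocyte markers lie between 2.43 and 2.63 with room air and between 3.51 and 3.73 with smoke, and neutrophil markers are highest in room air replicate 1 at 2.81.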

How the data were processed

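Lung RNA of 10 mice was measured on 10 arrays. For every array the authors deposited scanner files with an intensity per spot in red and in green, made by Agilent Feature Extraction 9.5.3.1 per the file headers (the labels name version 9.1). A log10 ratio of the channels, corrected for background and dye by that software, is in the same deposited files. A deposited table holds log2 values that are the mean of both channels, and served only as an alternative.

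From the intensities, mean signals were background-corrected with limma's normexp method (offset 50) and normalized by loess within arrays in limma 3.58.1 and R 4.3.3. Flagged spots were set missing, 83 to 141 per room air array and 121 to 144 per smoke array, and 67.8 to 76.7% and 64.9 to 77.5% of spots were well above background in red. A fold is the antilog of the difference in mean log2 ratio. Of 41174 probes, 22951 were named by accession, 6659 by current symbol, 3109 by synonym and 8455 kept the file's name; the brightest probe in red stood for its gene. List genes matched under older symbols were Hars, Nars, Adssl1, Adss and Lor.

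All probes were fitted with lmFit and eBayes of limma, two-sided, with Benjamini-Hochberg adjustment and a threshold of 0.05. The steps were tested on simulated data. Named were every probe of the 4 genes, the 5 genes most like each, the members' relatives and at most 8 called genes of each pathway list, and the brightest gene and at most 5 called genes of each marker list; other names were chosen after their values were seen. The genes and lists were chosen with earlier results of these data known. Arrays of the same replicate number share a slide, and across probes their deviations from the group means had correlations of 0.157, 0.46, 0.461, 0.55 and 0.415, against a highest of 0.205 between different numbers, so an alternative fitted the slide as a block. Other alternatives changed the background correction, normalization, channel, filter, probe averaging, flags, test and arrays left out.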

Additional observations from a re-analysis of the deposited data

Results flagged for a closer look

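In groups of 5 lungs, a value was marked when its gap to the nearest other lung, divided by the range of its group, exceeded Dixon's 95% critical value of 0.71. Of 102 groups tested 6 were marked, and chance flags about 1 in 20 groups. Room air replicate 1 was the highest of its group in Vnn1 (0.884), Vnn3 (0.805) and Mmp8 (0.885). Smoke replicate 4 was the lowest of its group in Hal (0.711) and Marco (0.821). Room air replicate 4 was the highest of its group in Asrgl1 (0.79).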

How the results depend on the processing

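The differences of Hal, Vnn1, Lipf and Aspg kept their direction under every alternative run except the authors' table with its columns as labelled, in which the groups are exchanged: there they were -2.11, -1.70, -0.51 and -0.91, and -0.23 at the dimmer Aspg probe. With the scanner software's own ratios the differences were 3.01 for Hal, 3.45 for Vnn1 and 2.41 for Lipf, and with a normexp offset of 16 that of Lipf was 2.00. In red alone, at the 75th percentile, they were 3.66 for Hal, 3.49 for Vnn1 and 2.31 for Lipf, and with quantile normalization 3.38 for Hal. In green alone, with quantile normalization over spots where the report used probe means, they were 0.48 for Hal, 0.062 for Vnn1, 0.0033 for Lipf and 0.075 for Aspg. The mean of both Aspg probes gave 1.06. Leaving out each array in turn gave 2.75 to 2.89 for Hal, 2.91 to 3.24 for Vnn1, 1.56 to 1.77 for Lipf, 1.43 to 1.68 for Aspg and 0.388 to 0.575 for the median correlation of the 4 genes. The correlation after removal of slide means was not run, since it reduces the arrays to 5 slide differences. Of 2906 probes called, 61.7% were higher with smoke. The count was 1434 with median centring (47.9% higher), 1759 with red at the 75th percentile, 14 in green alone, 5019 with the slide as a block, 13 in the authors' table, 2102 to 3660 with 1 array left out (3660 without room air replicate 1), and 0 by the exact Wilcoxon test, with 5444 at an unadjusted p under 0.05 and a smallest adjusted p of 0.115. For 75 other named genes, 21 alternatives gave 1567 values: 1420 on the same side of the threshold, 134 no longer past it, 13 newly past it and 0 called genes with the direction reversed. Among these 75 genes the block changed the calls of Gpx2, Cfb, Naprt and Cd3d and of no other. The cause of these changes was not tested. Signal over background limits Lipf in green and the dimmer Aspg probe in both channels.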
